A study of Homo sapiens with 6 samples.

Results

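The genes described here encode enzymes that write or remove methyl marks or remove acetyl marks on chromatin, together with subunits of the Polycomb complexes and accessory factors of DNA methylation. They were the 56 genes of a fixed list whose symbols matched rows of the deposited table, and all 56 were found among its 58174 genes. The list spans Polycomb repressive complex 2 (PRC2, 5 genes) and complex 1 (PRC1, 8 genes), histone methyltransferases for H3K4 (7), H3K36 and H3K79 (3) and H3K9 (5), histone demethylases (11), DNA methylation factors (5), TET dioxygenases (3), and histone deacetylases (HDACs) of class I (3) and of classes II and IV (6). mRNA-seq was performed in KNS42 cells, an established line from a pediatric glioblastoma (GBM), after transfection of a control siRNA (siC, n = 3) or siRNAs directed against MSI1 (siMSI1, n = 3). All cells were harvested 72 h after transfection, and none was left untransfected. All libraries came from 1 line grown in serum-containing medium. Since the sources used here do not state whether the libraries came from separate cultures, the p-values measure only the spread between these libraries, which may be technical.

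MSI1 encodes Musashi 1, an RNA-binding protein that recognizes UAG-containing elements, mostly in 3′UTRs. Chromatin modifiers act in opposing pairs of writers and erasers. PRC2 methylates H3K27, and PRC1 binds this mark through its CBX subunits and ubiquitinates H2A. SUV39H, EHMT and SETDB1 enzymes place the H3K9 methylation of heterochromatin. Most KMT2 enzymes and the SETD1 enzymes methylate H3K4 at enhancers and promoters, and KDM enzymes remove histone methylation. DNMT1, guided by UHRF1, copies DNA methylation onto newly made strands, DNMT3A and DNMT3B place it anew, and TET enzymes oxidize it. In glioma, Polycomb is known for keeping cells in a stem-like state, and pediatric high-grade gliomas often carry lesions in the histone and chromatin genes themselves.

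The libraries held 13087025 to 18024080 reads on genes, and the number of reads on a single member ranged from 30 (CBX7) to 7031 (HDAC9). Values are given in FPKM, read numbers divided by gene length and by a library size that was not simply the number of reads on genes. Fold changes are on the scale of log2(FPKM + 0.1). MSI1 itself (ENSG00000135097, chr12:120341330-120369164 on GRCh38) was at 63.7, 61.9 and 66.9 FPKM in the siC libraries and at 12.1, 12.3 and 11.2 FPKM upon knockdown, 18.5% of siC (limma adjusted p = 8.71e-06). The glioma and neural stem markers VIM (1035 FPKM in siC), SOX2 (301 FPKM) and NES (69.2 FPKM) were high, whereas OLIG2 and S100B were listed at 0 in all libraries, as were the neuronal RBFOX3, the oligodendrocyte marker MOG and the microglial AIF1. CD44, of the same list, was at 84.8 FPKM in siC and 61.9 FPKM in siMSI1 (limma adjusted p = 0.00303). GFAP was at 1.63 FPKM in siC and 4.61 FPKM in siMSI1 (limma adjusted p = 0.000905), and the neuronal SYN1 at 2.26 and 1.19 FPKM (limma adjusted p = 0.00620). With 1 library left out, GFAP kept an adjusted p of at most 0.01 in all 6 fits, CD44 in 1 and SYN1 in 0. In bulk libraries, fewer cells of a type and less RNA per cell cannot be told apart.

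Upon MSI1 knockdown, 7 of the 56 members fell and 1 rose at an adjusted p of at most 0.01 (limma, Benjamini-Hochberg over 15069 tested genes). The 7 lower genes were CBX6, HDAC9, UHRF1, HELLS, SUV39H2, CBX2 and EZH2, and the higher gene was KDM4A. Of all tested genes, 5.83% fell and 5.15% rose (11.0% in either direction), beside 12.5% and 1.79% (14.3%) of the members. These shares were not tested against each other. The median log2 fold change was -0.01 over the members and 0.00 over all tested genes. In 17 members all siMSI1 libraries lay below all siC libraries and in 6 they lay above them, that is in 30.4% and 10.7%, beside 21.5% and 21.4% of all tested genes. The other 33 members had overlapping groups. CBX6, HDAC9 and UHRF1 stayed past the threshold in all 6 fits that left out 1 library. Without siC replicate 1, 2 or 3, no other member was called, without siMSI1 replicate 1 or 2 SUV39H2 was the other one, and without siMSI1 replicate 3 the count was 6 lower, with DNMT1 and HDAC11 among them but not HELLS, CBX2 or EZH2, and 1 higher (KDM4A).

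**Figure D1:**
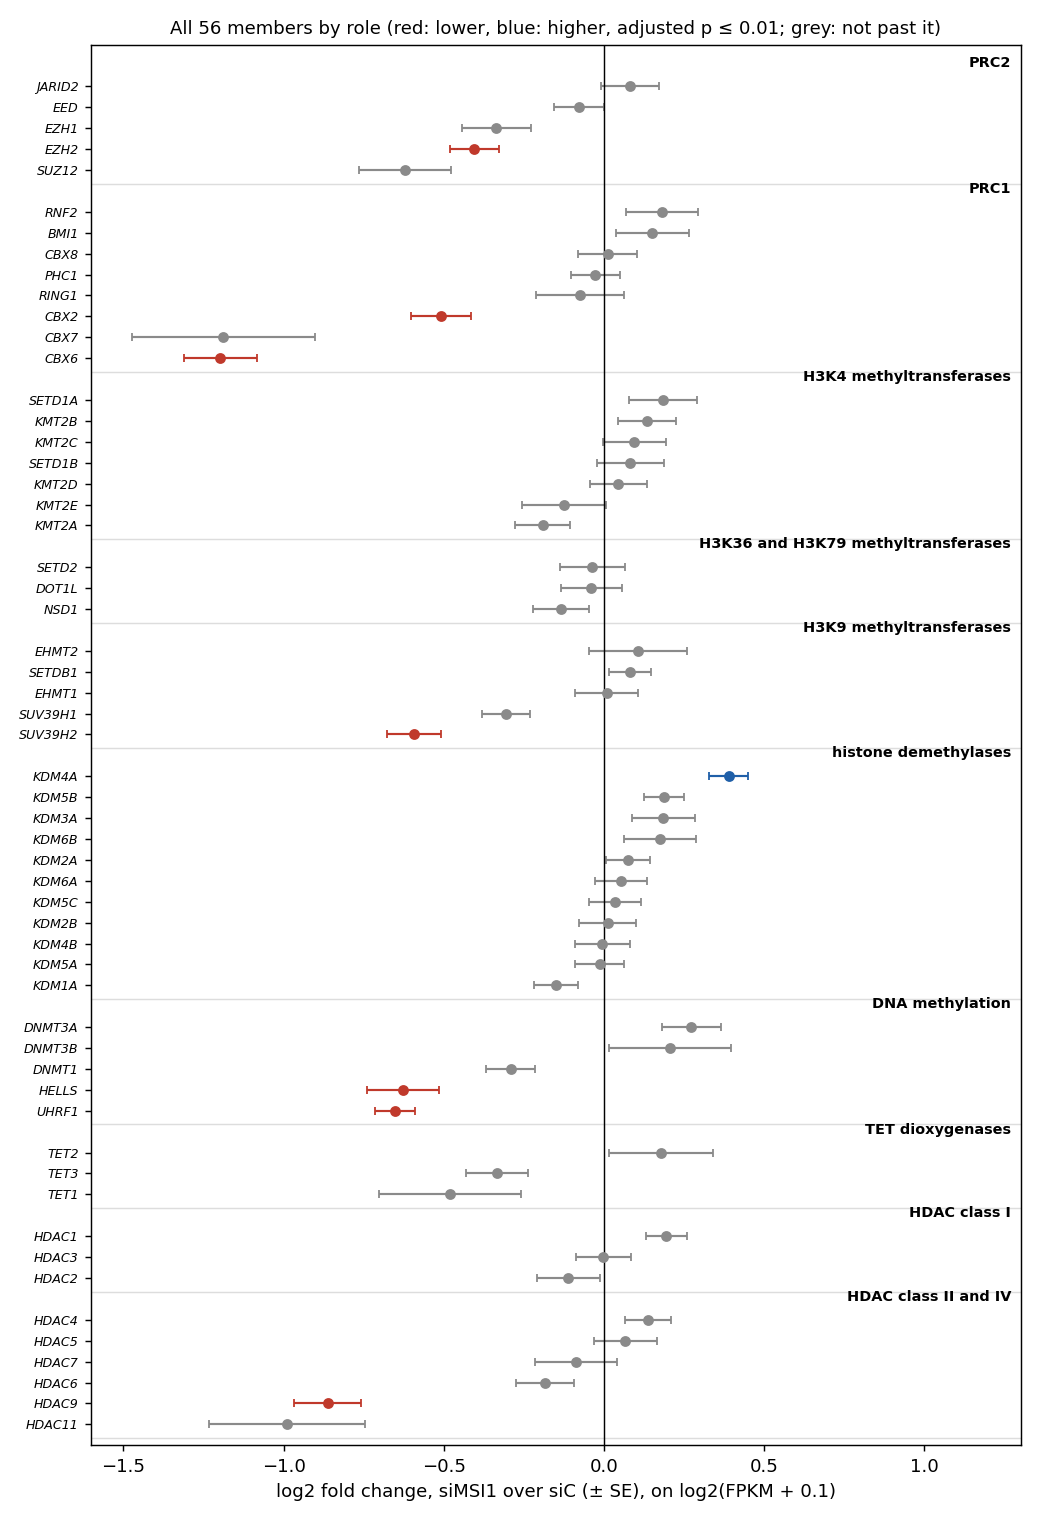
Log2 fold change (x axis, siMSI1 over siC, ± SE) of all 56 members, grouped by role, with red for members past the threshold and lower, blue for higher and grey for not past it. CBX6 (-1.20) and HDAC9 (-0.86) are the called members farthest to the left, KDM4A (0.39) is the only one called to the right, and the H3K4 methyltransferases lie between -0.19 and 0.18.

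Levels differed widely between members. On the per-length FPKM scale, HDAC1, a class I deacetylase of the SIN3, NuRD and CoREST complexes, had the highest mean, with 40.1, 40.1 and 42.6 FPKM in the siC libraries and 44.7, 47.9 and 48.0 FPKM upon knockdown. The siMSI1 libraries all lay above the siC libraries, but the difference of 0.20 ± 0.06 (SE) on the log2 scale did not pass the threshold (limma adjusted p = 0.0577). DNMT1 followed at 40.4 FPKM in siC. CBX7 had the lowest mean over all libraries, and CBX7, DNMT3B, TET1, TET2 and EHMT2 were the 5 members below 2 FPKM in siC. In all, 18 members reached 10 FPKM in siC, with a median of 7.19 FPKM. The summed FPKM of the 56 members ran from 571 to 572 in siC libraries and from 521 to 536 upon knockdown, 92.4% of siC. The sum of the DNA methylation factors was at 75.5% of siC, of PRC2 at 77.0% and of HDAC classes II and IV at 78.1%, while that of the H3K4 methyltransferases was at 104% and of the demethylases at 107%. Such sums are weighted to the abundant genes. In the sum of HDAC classes II and IV (49.4 FPKM in siC, 38.6 FPKM in siMSI1), HDAC9 held 21.6 and 11.8 FPKM. In that of the demethylases (128 and 137 FPKM), KDM4A held 19.0 and 24.9 FPKM.

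Among the DNA methylation factors, both accessory proteins of maintenance methylation fell. UHRF1 (ENSG00000276043, chr19:4903080-4962154, plus strand), which recognizes hemimethylated DNA and recruits DNMT1, was at 36.1, 34.4 and 32.7 FPKM in the siC libraries and at 21.9, 21.8 and 21.8 FPKM upon knockdown. The groups lay far apart, and the siMSI1 libraries were nearly equal (SD 0.0720 FPKM). UHRF1 was thus at 63.5% of siC, a log2 fold change of -0.65 ± 0.06 (SE, limma adjusted p = 0.000571). HELLS (ENSG00000119969, chr10:94545329-94613905, plus strand), a SNF2-family remodeler needed for methylation of repeats, was at 8.85, 10.2 and 8.16 FPKM in the siC libraries and at 6.44, 5.81 and 5.24 FPKM upon knockdown. Each siMSI1 library was lower than each siC library, with the most spread in siC. The log2 fold change was -0.63 ± 0.11 (SE, limma adjusted p = 0.00657), and it missed the threshold in each fit that left out 1 library (adjusted p 0.0113 to 0.0275).

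The methyltransferases themselves differed from each other in direction. DNMT1, the maintenance enzyme, was at 40.7, 39.1 and 41.3 FPKM in the siC libraries and at 32.4, 30.7 and 36.1 FPKM upon knockdown, without overlap but short of the threshold (-0.29 ± 0.08, limma adjusted p = 0.0268). DNMT3A, a de novo enzyme, was at 5.13, 5.08 and 4.39 FPKM in the siC libraries and at 6.16, 5.74 and 5.76 FPKM upon knockdown. Its siMSI1 libraries all lay above siC, and it did not pass either (0.27 ± 0.09, limma adjusted p = 0.0651). The low DNMT3B, the other de novo enzyme, had overlapping groups (0.892 ± 0.0549 against 1.05 ± 0.163 FPKM, SD, n = 3). Within each library the log2 ratio of DNMT1 over DNMT3A ran from 2.92 to 3.20 in siC libraries and from 2.38 to 2.63 upon knockdown, so that these groups did not overlap (difference -0.56, two-sided exact permutation p = 0.1, the smallest that 3 against 3 libraries allow). The TDG glycosylase, which excises oxidized cytosines downstream of TET, fell to 54.3% of siC (5.55 ± 0.668 against 3.01 ± 0.307 FPKM, SD, n = 3, limma adjusted p = 0.00272), as 1 of 11 listed readers and partners of DNA methylation, none of which rose.

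UHRF1, HELLS and DNMT1 are known to be transcribed around S phase. All 10 listed S phase genes (PCNA, E2F1, TYMS, RRM2 and the MCM genes MCM2 to MCM7) fell, with a median log2 fold change of -0.57 and a range from -0.89 (E2F1) to -0.35 (MCM3). Leaving out 1 library kept between 3 (without siC replicate 1) and 10 (without siMSI1 replicate 3) of them past the threshold, and MCM4, MCM6 and E2F1 passed in all 6 such fits. Of the 10 mitotic genes, MKI67 (-0.41) and CDK1 (-0.50) fell, none rose, and the median was -0.18, with TOP2A at -0.04, CCNB1 at 0.10 and CCNA2 at 0.06. Between 0 and 2 mitotic genes passed with 1 library left out. UHRF1 and HELLS thus lay within the range of the S phase genes and DNMT1 just above it. The part of the S phase decrease in the fall of these members was not tested.

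The RefSeq promoter windows (GRCh38.p14, 250 bases before to 50 after the most upstream listed start, 51 of the 56 members matched) were searched on both strands for the E2F letters TTTCCCGC, TTTGGCGC, TTTCGCGC and TTTGCCGC, for CCAAT (NF-Y) and for TTTGAA (the cell cycle homology region, CHR). E2F factors drive transcription at the entry into S phase. These letters were in 6 of the 51 member windows (11.8%), beside 3.34% of all 27305 promoters and 5.76% of those of tested genes. The 6 members were DNMT1, UHRF1, HELLS, EZH1, EZH2 and SUZ12. All siMSI1 libraries were below all siC libraries for each of the 6, with log2 fold changes from -0.65 to -0.29, and 3 of the 6 passed the threshold. The same lack of overlap, with siMSI1 lower, was seen in 10 of the 45 members without the letters (22.2%), in 31.3% of the 527 tested genes with the letters and in 24.7% of the 9157 tested genes with a promoter entry. Of the 45 members without the letters, 3 fell and 1 rose. CBX2, which fell as well, had no matched window and was not searched. Over all 527 tested genes with the letters, 12.9% fell and 2.66% rose, beside 6.93% and 6.0% of the 9157 tested genes with a promoter entry. CCAAT was in 14 member windows (27.5%, beside 35.7% of all promoters and 37.5% of those of tested genes). TTTGAA was in 5 (9.80%, beside 15.5% of all promoters and 9.69% of those of tested genes). Such matches are letters in a window and not binding sites. The windows of UHRF1 (chr19:4909251-4909550, plus strand) and HELLS (chr10:94545538-94545837, plus strand) and a stretch of that of DNMT1 (chr19:10194928-10194975, minus strand) are shown because these are the DNA methylation factors with the E2F letters, in capitals together with CCAAT, both read 5′ to 3′ on the gene's strand.
UHRF1: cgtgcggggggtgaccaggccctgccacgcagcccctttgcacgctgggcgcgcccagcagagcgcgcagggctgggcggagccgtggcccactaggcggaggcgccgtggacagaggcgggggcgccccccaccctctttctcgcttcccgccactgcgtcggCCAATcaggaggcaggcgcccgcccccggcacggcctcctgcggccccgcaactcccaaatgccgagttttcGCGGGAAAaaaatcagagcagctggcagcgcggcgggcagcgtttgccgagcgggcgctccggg
HELLS: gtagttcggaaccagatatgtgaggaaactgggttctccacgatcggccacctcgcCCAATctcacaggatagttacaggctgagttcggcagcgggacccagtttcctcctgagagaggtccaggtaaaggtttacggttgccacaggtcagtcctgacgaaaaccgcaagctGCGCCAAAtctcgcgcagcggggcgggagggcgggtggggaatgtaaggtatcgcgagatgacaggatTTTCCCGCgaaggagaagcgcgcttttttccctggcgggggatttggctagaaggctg
DNMT1: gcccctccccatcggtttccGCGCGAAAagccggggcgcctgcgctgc
Counted from the first transcribed base as 0, the E2F letters lie at -14 to -7 on the opposite strand in UHRF1. HELLS holds them at -76 to -69 on the opposite strand and at -8 to -1 on the gene's strand. In DNMT1 they span the start, from -2 to 5, on the opposite strand.

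**Figure D2:**
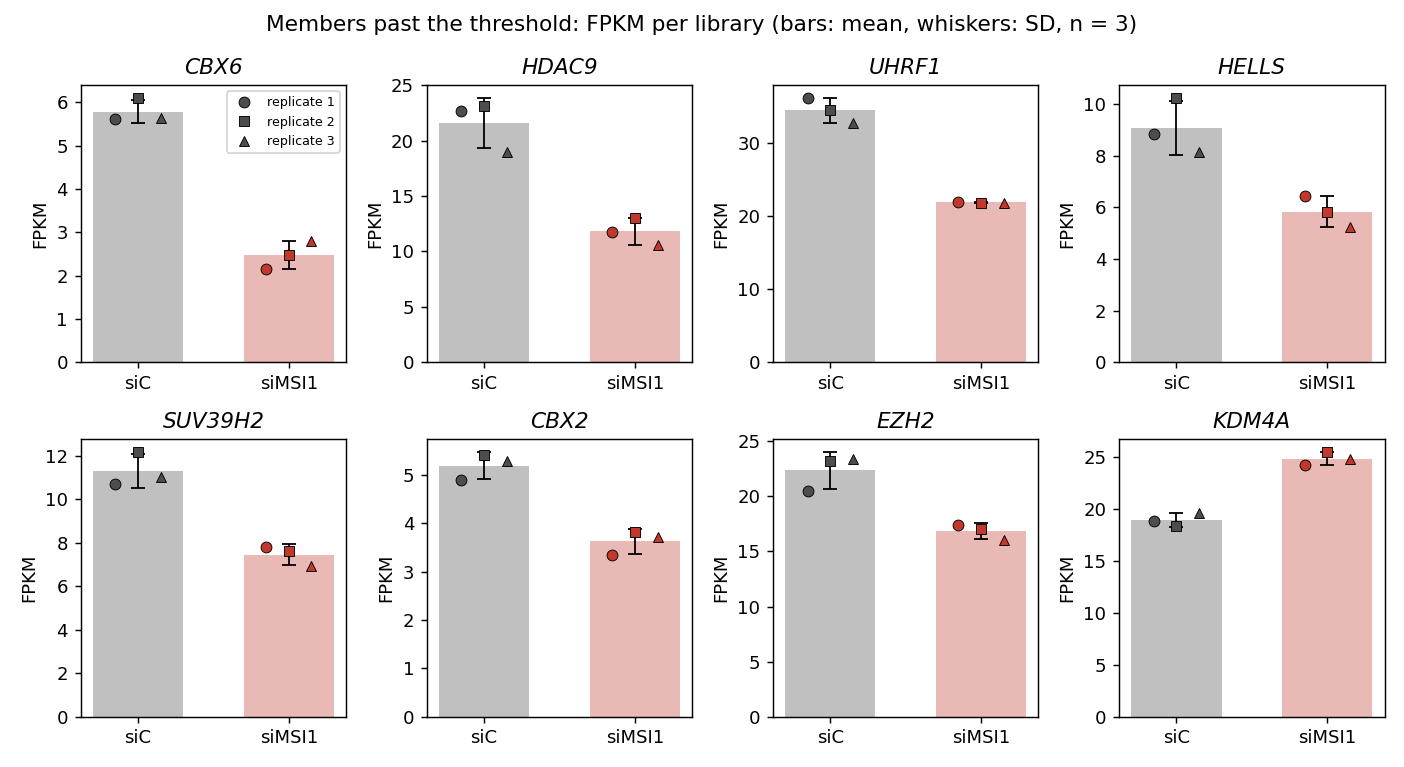
FPKM (y axis) of the 8 members past the threshold in each library, with symbols for replicates 1 to 3, bars for the group mean and whiskers for the SD (n = 3). In all 8 panels the siC and siMSI1 libraries do not overlap, and UHRF1 shows the tightest siMSI1 group (21.8 to 21.9 FPKM).

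Of the PRC2 members, the catalytic EZH2 fell and no other passed the test. EZH2 (ENSG00000106462, chr7:148807257-148884321, minus strand), the main H3K27 methyltransferase of dividing cells, was at 20.5, 23.2 and 23.4 FPKM in the siC libraries and at 17.4, 17.0 and 16.1 FPKM upon knockdown. The lowest siC library remained above the highest siMSI1 library. It fell to 75.4% of siC (-0.40 ± 0.08, limma adjusted p = 0.00815) and missed the threshold in each fit that left out 1 library (adjusted p 0.0154 to 0.0319) and in the fit with the replicate number as a block. SUZ12, the scaffold that holds the complex on chromatin, was at 17.4, 19.6 and 15.9 FPKM in the siC libraries and at 12.0, 13.4 and 9.18 FPKM upon knockdown. Its groups did not overlap, but siMSI1 replicate 3 lay well below the other two, and the log2 fold change of -0.62 ± 0.14 did not pass (limma adjusted p = 0.0178). EZH1, the paralog of EZH2 that is more prominent in resting cells, was at 4.21, 4.45 and 3.95 FPKM in the siC libraries and at 2.94, 3.42 and 3.59 FPKM upon knockdown. These groups did not overlap either (-0.34 ± 0.11, limma adjusted p = 0.0552). The log2 ratio of EZH2 over EZH1 was 2.38 ± 0.143 in siC and 2.31 ± 0.199 in siMSI1 (SD, n = 3), with overlapping groups. EED, which binds trimethylated H3K27, and JARID2, an accessory DNA-binding subunit, had overlapping groups and log2 fold changes of -0.08 and 0.08. Of 7 further PRC2 subunits, the histone chaperone RBBP4 fell from 18.0 ± 0.903 to 13.0 ± 0.802 FPKM (SD, n = 3, limma adjusted p = 0.00413) and none rose. The stretches around the E2F letters of EZH2 (chr7:148884263-148884310, minus strand), SUZ12 (chr17:31936798-31936845, plus strand) and EZH1 (chr17:42745128-42745175, minus strand) are shown with these letters in capitals. The reason is that these are the PRC2 members whose windows hold the letters.
EZH2: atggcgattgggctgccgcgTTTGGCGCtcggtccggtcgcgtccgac
SUZ12: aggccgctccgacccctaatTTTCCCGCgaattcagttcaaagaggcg
EZH1: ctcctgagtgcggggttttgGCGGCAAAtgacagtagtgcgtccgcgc
The letters lie from 1 to 8 in EZH2, from -189 to -182 in SUZ12 and, on the opposite strand, from -115 to -108 in EZH1. RefSeq lists 2 starts for EZH2 and 3 for UHRF1, and the FPKM of a gene do not tell which start was used.

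The PRC1 members that fell, CBX6 and CBX2, were both chromobox subunits, and none rose. CBX6 (ENSG00000183741, chr22:38861422-38872249, minus strand), a chromobox reader of methylated H3K27, was at 5.63, 6.10 and 5.64 FPKM in the siC libraries and at 2.16, 2.48 and 2.80 FPKM upon knockdown. All siMSI1 libraries were at less than the lowest siC library by more than 2 FPKM. It fell to 42.8% of siC, the largest log2 fold change among the members past the threshold (-1.20 ± 0.11, limma adjusted p = 0.000554). CBX2 (ENSG00000173894, chr17:79778148-79787983, plus strand), a chromobox subunit that compacts nucleosomes, was at 4.89, 5.41 and 5.29 FPKM in the siC libraries and at 3.34, 3.82 and 3.72 FPKM upon knockdown. The groups lay apart, and CBX2 fell to 69.8% of siC (-0.51 ± 0.09, limma adjusted p = 0.00735), but not in the fits that left out 1 library (adjusted p 0.0117 to 0.0294). CBX7, known as a chromobox of self-renewing cells, was at 0.850, 1.06 and 1.11 FPKM in the siC libraries and at 0.273, 0.470 and 0.429 FPKM upon knockdown. Its groups did not overlap and its log2 fold change of -1.19 ± 0.29 was nearly that of CBX6, but it rested on 30 to 143 reads per library and did not pass (limma adjusted p = 0.0205). CBX8, a further chromobox subunit, was at 8.22 ± 0.295 FPKM in siC and 8.32 ± 0.888 FPKM in siMSI1 (SD, n = 3).

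The catalytic core of PRC1 did not pass the test. The E3 ligases RING1 and RNF2 had log2 fold changes of -0.07 and 0.18, their partner BMI1 of 0.15, and the polymerizing PHC1 of -0.03, all with overlapping groups. Without siC replicate 3 or siMSI1 replicate 1 the sign of RING1 turned. Of 10 further PRC1 subunits, PCGF1, which defines a variant complex recruited to CpG islands, rose from 5.96 ± 0.300 to 8.91 ± 0.785 FPKM (SD, n = 3, limma adjusted p = 0.00408), and none fell.

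Some members are neighbours in the genome. CBX6 and CBX7 lie 247918 bases apart on chromosome 22 with 8 annotated protein-coding genes between them, most of which are APOBEC3 genes. Of these, APOBEC3B fell as well (-1.07, limma adjusted p = 0.000976), whereas APOBEC3C was at -0.33 (limma adjusted p = 0.0804) and APOBEC3F at 0.15 (limma adjusted p = 0.578). CBX2 and CBX8 lie 4149 bases apart on chromosome 17, with log2 fold changes of -0.51 and 0.01. UHRF1 and KDM4B are neighbours on chromosome 19 at 6959 bases, with -0.65 and -0.01. The window of CBX6 (chr22:38872167-38872466, minus strand) is shown because this member had the largest fall among those past the threshold, and it holds none of the letters searched, so that it carries no capitals.
CBX6: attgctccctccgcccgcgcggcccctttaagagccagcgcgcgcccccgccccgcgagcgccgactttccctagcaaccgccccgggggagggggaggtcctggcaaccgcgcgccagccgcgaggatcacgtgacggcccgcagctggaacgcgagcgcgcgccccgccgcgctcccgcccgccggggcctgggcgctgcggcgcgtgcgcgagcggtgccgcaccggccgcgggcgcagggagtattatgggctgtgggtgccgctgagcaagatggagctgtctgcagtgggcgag

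Among the H3K9 methyltransferases, SUV39H2 fell and no other passed the test. SUV39H2 (ENSG00000152455, chr10:14878820-14904315, plus strand), which trimethylates H3K9 in constitutive heterochromatin, was at 10.7, 12.2 and 11.0 FPKM in the siC libraries and at 7.82, 7.64 and 6.91 FPKM upon knockdown. The groups were well separated, and SUV39H2 fell to 66.0% of siC (-0.59 ± 0.08, limma adjusted p = 0.00252). It overlaps DCLRE1C on the opposite strand, which was at 1.76 FPKM in siC and 1.78 FPKM in siMSI1. SUV39H1, its X-linked paralog, was at 20.7, 19.9 and 21.3 FPKM in the siC libraries and at 15.4, 16.8 and 17.8 FPKM upon knockdown, without overlap and short of the threshold (-0.31 ± 0.07, limma adjusted p = 0.0213). The log2 ratio of SUV39H1 over SUV39H2 ran from 0.70 to 0.95 in siC libraries and from 0.97 to 1.35 upon knockdown (difference 0.29, exact permutation p = 0.1). EHMT1 and EHMT2, the G9a-type enzymes for H3K9 dimethylation in euchromatin, and SETDB1, which silences retroelements with TRIM28, had log2 fold changes of 0.01, 0.11 and 0.08. Of these, SETDB1 had groups without overlap, with siMSI1 higher (12.2 ± 0.266 against 12.9 ± 0.542 FPKM, SD, n = 3, limma adjusted p = 0.413).

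KDM4A was the sole member that rose. KDM4A (ENSG00000066135, chr1:43650149-43705518, plus strand), a Jumonji demethylase of trimethylated H3K9 and H3K36, was at 18.9, 18.4 and 19.7 FPKM in the siC libraries and at 24.3, 25.5 and 24.9 FPKM upon knockdown. All 3 siMSI1 libraries lay above all siC libraries with little spread in either group. The increase to 131% of siC (0.39 ± 0.06) had a limma adjusted p of 0.00393, and it passed in 1 of the 6 fits that left out a library, the one without siMSI1 replicate 3 (adjusted p 0.00646 to 0.0271). The antisense gene KDM4A-AS1 was at 1.60 FPKM in siC and 1.78 FPKM in siMSI1, and an annotated gene on the same strand that covers all of KDM4A was not analysed here. The paralog KDM4B was at 7.48 ± 0.474 and 7.46 ± 0.539 FPKM (SD, n = 3). The log2 ratio of KDM4A over KDM4B ran from 1.22 to 1.42 in siC libraries and from 1.61 to 1.80 upon knockdown (difference 0.39, exact permutation p = 0.1). KDM4C, a further paralog outside the list of members, was at 2.49 ± 0.114 and 2.84 ± 0.307 FPKM with overlapping groups (SD, n = 3, log2 fold change 0.18, limma adjusted p = 0.295). The promoter window of KDM4A (chr1:43649899-43650198, plus strand) is shown as that of the rising member. It holds CCAAT 3 times, each on the opposite strand and in capitals, and no E2F letters.
KDM4A: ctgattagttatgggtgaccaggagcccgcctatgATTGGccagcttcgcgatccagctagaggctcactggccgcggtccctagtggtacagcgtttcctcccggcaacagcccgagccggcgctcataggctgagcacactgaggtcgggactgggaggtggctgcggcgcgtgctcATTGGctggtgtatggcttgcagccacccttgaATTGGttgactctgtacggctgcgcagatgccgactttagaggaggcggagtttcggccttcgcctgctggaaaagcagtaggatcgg

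The other 10 demethylases did not pass. KDM5B, which removes H3K4 methylation, came closest, at 11.2, 10.7 and 11.0 FPKM in the siC libraries and 12.7, 12.4 and 12.5 FPKM upon knockdown. These groups did not overlap (0.19 ± 0.06, limma adjusted p = 0.0620), and the log2 ratio of KDM5B over KDM5A ran from 0.48 to 0.56 in siC libraries and from 0.64 to 0.81 upon knockdown. KDM1A (LSD1), which demethylates H3K4 with the CoREST complex, was at 20.9 ± 1.09 and 18.8 ± 0.808 FPKM (SD, n = 3, limma adjusted p = 0.156). KDM3A, a hypoxia-inducible H3K9 demethylase, was at 6.87 ± 0.388 and 7.85 ± 0.841 FPKM. The H3K27 demethylases KDM6A and KDM6B had log2 fold changes of 0.05 and 0.18, the CpG island proteins KDM2A and KDM2B of 0.08 and 0.01, and KDM5A and KDM5C of -0.01 and 0.03, all with overlapping groups. Of 7 further tested demethylases and partners, PHF2, an H3K9 demethylase, fell to 76.6% of siC (10.3 ± 0.410 against 7.85 ± 0.388 FPKM, SD, n = 3, limma adjusted p = 0.00880).

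Of the deacetylases, HDAC9 alone passed the threshold. HDAC9 (ENSG00000048052, chr7:18086949-19002416, plus strand), a class IIa enzyme that represses MEF2 targets in muscle and neurons, was at 22.6, 23.1 and 19.0 FPKM in the siC libraries and at 11.8, 13.0 and 10.6 FPKM upon knockdown. The lowest siC library stood clear of the highest siMSI1 library. HDAC9 fell to 54.8% of siC (-0.86 ± 0.11, limma adjusted p = 0.00138). With 21.6 FPKM in siC it was the most abundant of the 6 class II and IV members, and in siMSI1, with 11.8 FPKM, it still was. HDAC11, the class IV enzyme, was at 2.15, 1.70 and 2.54 FPKM in the siC libraries and at 0.822, 0.852 and 1.45 FPKM upon knockdown. Its groups did not overlap, siMSI1 replicate 3 was the highest of its group, and with 59 to 193 reads per library the log2 fold change of -0.99 ± 0.24 did not pass (limma adjusted p = 0.0227). Without that library it did (adjusted p = 0.00597).

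The remaining class II deacetylases did not pass. HDAC4, HDAC5 and HDAC7, the class IIa relatives of HDAC9, had log2 fold changes of 0.14, 0.07 and -0.09, and HDAC6, a cytoplasmic tubulin deacetylase, of -0.18 (limma adjusted p = 0.172). Of these, HDAC4 had groups without overlap, with siMSI1 higher (7.13 ± 0.142 against 7.85 ± 0.351 FPKM, SD, n = 3, limma adjusted p = 0.205). In class I, HDAC2 was at 13.0 ± 0.575 and 12.1 ± 1.48 FPKM and HDAC3, the catalytic subunit of the NCoR complex, at 20.3 ± 1.28 and 20.3 ± 1.75 FPKM (SD, n = 3). The log2 ratio of HDAC1 over HDAC2 ran from 1.54 to 1.73 in siC libraries and from 1.82 to 2.18 upon knockdown (difference 0.31, exact permutation p = 0.1). None of 12 further tested deacetylases and corepressor subunits passed.

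None of the TET enzymes, which oxidize methylated cytosine, passed the threshold. TET3 was at 5.00, 4.86 and 4.28 FPKM in the siC libraries and at 3.86, 3.51 and 3.77 FPKM upon knockdown, without overlap (-0.33 ± 0.10, limma adjusted p = 0.0402). TET1 was at 0.870, 0.958 and 0.906 FPKM in the siC libraries and at 0.519, 0.657 and 0.712 FPKM upon knockdown, on 71 to 161 reads per library (-0.48 ± 0.22, limma adjusted p = 0.155). Both were lower in each siMSI1 library than in any siC library. The pseudogene COX20P1 within TET1 on the same strand moved the other way, from 0.759 to 3.76 FPKM. TET2 was at 1.22 ± 0.0919 and 1.41 ± 0.195 FPKM (SD, n = 3), with overlapping groups.

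None of the H3K4, H3K36 and H3K79 methyltransferases among the members passed the test. Among the 7 members listed as H3K4 methyltransferases the log2 fold changes ran from -0.19 (KMT2A) to 0.18 (SETD1A), with standard errors of 0.09 to 0.13. KMT2A was the sole one without overlap (6.45 ± 0.527 against 5.63 ± 0.167 FPKM, SD, n = 3, limma adjusted p = 0.149), and its log2 ratio over KMT2B ran from -0.45 to -0.19 in siC libraries and from -0.78 to -0.49 upon knockdown (difference -0.33, exact permutation p = 0.1). The H3K36 enzymes SETD2 and NSD1 had log2 fold changes of -0.04 and -0.13, and the H3K79 enzyme DOT1L of -0.04. Of these, NSD1 had groups without overlap, with siMSI1 lower (limma adjusted p = 0.297). Of the subunits shared by H3K4 methyltransferase complexes, WDR5 fell from 27.9 ± 1.46 to 19.0 ± 1.29 FPKM (SD, n = 3, limma adjusted p = 0.00227). The shared subunits ASH2L, RBBP5 and DPY30 did not pass, with log2 fold changes of -0.01, 0.02 and 0.20. Of the 17 tested subunits and further methyltransferases, KMT5A (H4K20, -0.39, limma adjusted p = 0.00447) and NSD2 (H3K36, -0.31, limma adjusted p = 0.00881) fell as well and SMYD2 rose (0.48, limma adjusted p = 0.00798). Among 9 acetyltransferases, KAT2A (GCN5) rose from 21.3 ± 1.49 to 30.3 ± 0.614 FPKM (SD, n = 3, limma adjusted p = 0.00232) and none fell. NSD2 and SMYD2 missed the threshold in each of the 6 fits that left out 1 library (limma adjusted p 0.0117 to 0.0525 and 0.0137 to 0.0337). In all, 9 of 73 tested partner genes were called (12.3%, beside 11.0% of all tested genes), 6 lower and 3 higher. None passed without siC replicate 1, and 7 passed without siMSI1 replicate 3.

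**Figure D3:**
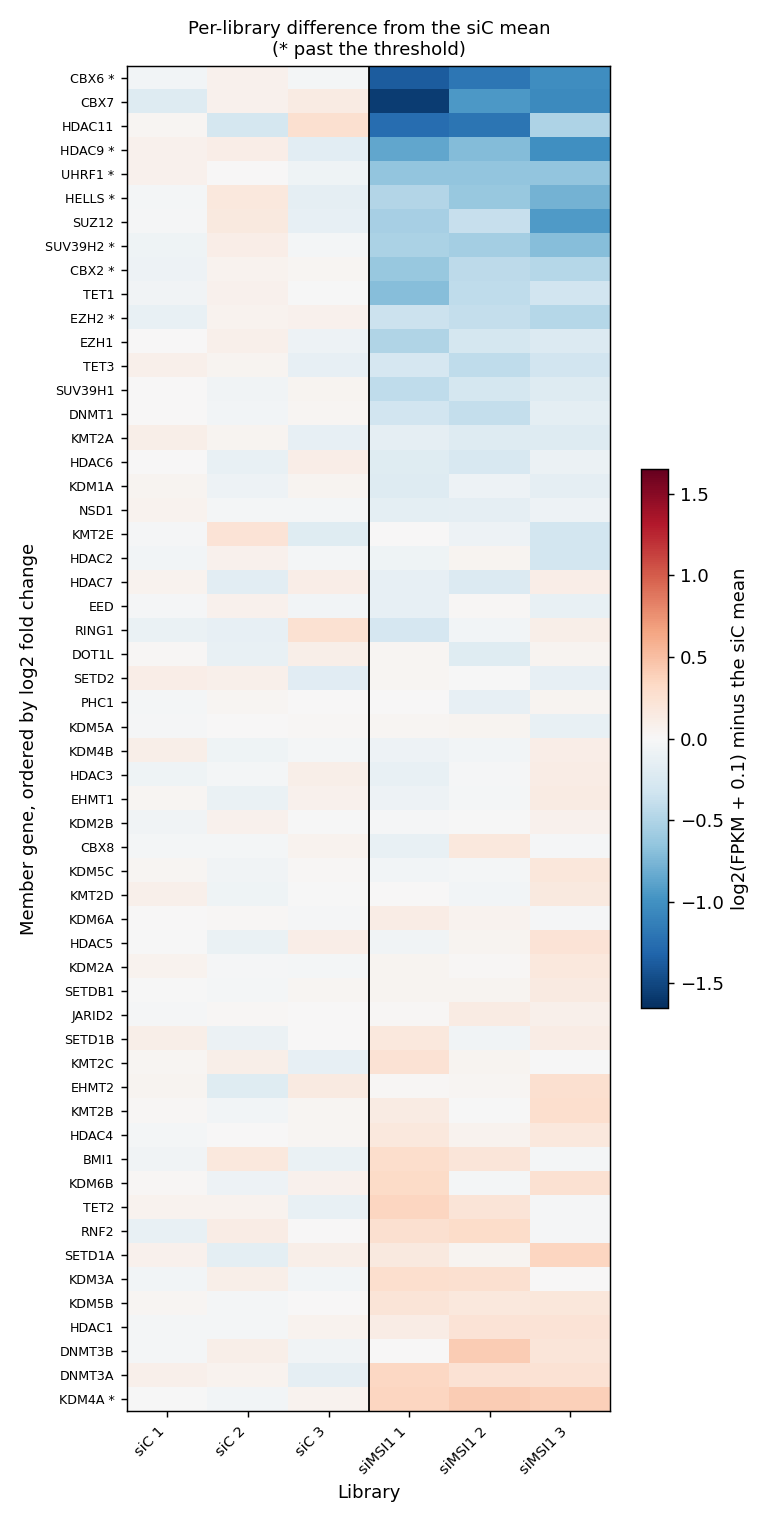
Difference of log2(FPKM + 0.1) from the siC mean (colour) for each of the 56 members (rows, ordered by log2 fold change) in each library (columns), with asterisks for members past the threshold. The top 5 rows, CBX6, CBX7, HDAC11, HDAC9 and UHRF1, are blue in all 3 siMSI1 libraries, HDAC11 less so in replicate 3, and the KDM4A row at the bottom is red in all 3.

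Related members were also compared as log2 ratios within each library. In 7 of the 17 pairs compared, the siC and siMSI1 libraries did not overlap. Each of these had the smallest p that the exact test allows, 0.1, and an adjusted p of 0.243 over the 17 pairs, so that none could pass at this number of libraries. The largest shift was that of CBX2 over CBX7, with log2 ratios of 2.16 to 2.39 in siC and 2.78 to 3.21 in siMSI1 (difference 0.68), which shrank to 0.11 when 1 FPKM was added in place of 0.1. In the other 10 pairs, among them EZH2 over EZH1 and RING1 over RNF2, the groups overlapped.

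**Figure D4:**
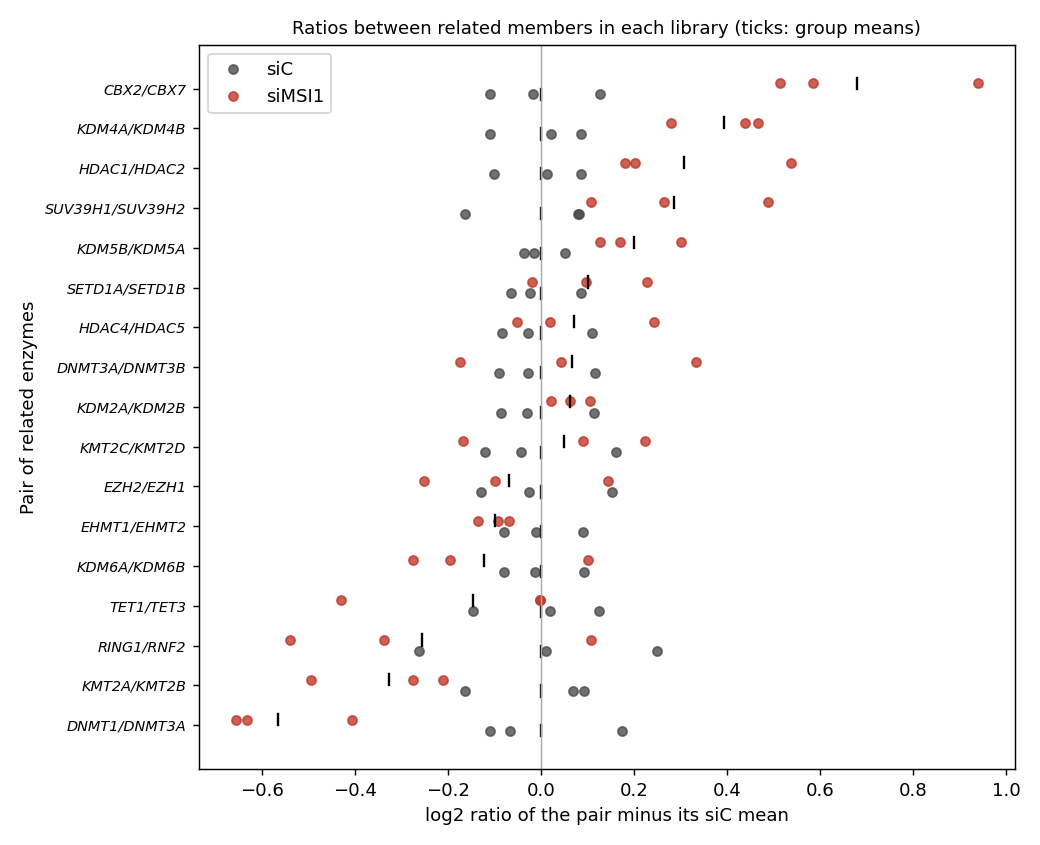
Log2 ratio of each of the 17 pairs of related members minus its siC mean (x axis), with 1 point per library and ticks for group means. DNMT1 over DNMT3A shifts most to the left (-0.56) and CBX2 over CBX7 most to the right (0.68), and 10 pairs overlap.

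GUAG, a core of the Musashi element, was counted in the longest annotated 3′UTR of each member (GENCODE release 44). The 7 lower members held a median of 1.73 GUAG per kb, all 56 members 2.06 and all 11281 tested protein-coding genes with a 3′UTR 2.38. The median 3′UTR lengths of these sets were, in the same order, 2941, 2021.5 and 1539 bases. The shares of genes with any GUAG were 85.7%, 91.1% and 83.1%. The values of the lower members ran from 0 in EZH2, whose 3′UTR has 263 bases, to 2.52 in HDAC9, whose 3′UTR has 6354 bases and 16 GUAG. CBX6 had 9 in 4787 bases and UHRF1 had 3 in 1351 bases. The rising KDM4A, with 1.74 per kb, lay among the lower members.

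**Figure D5:**
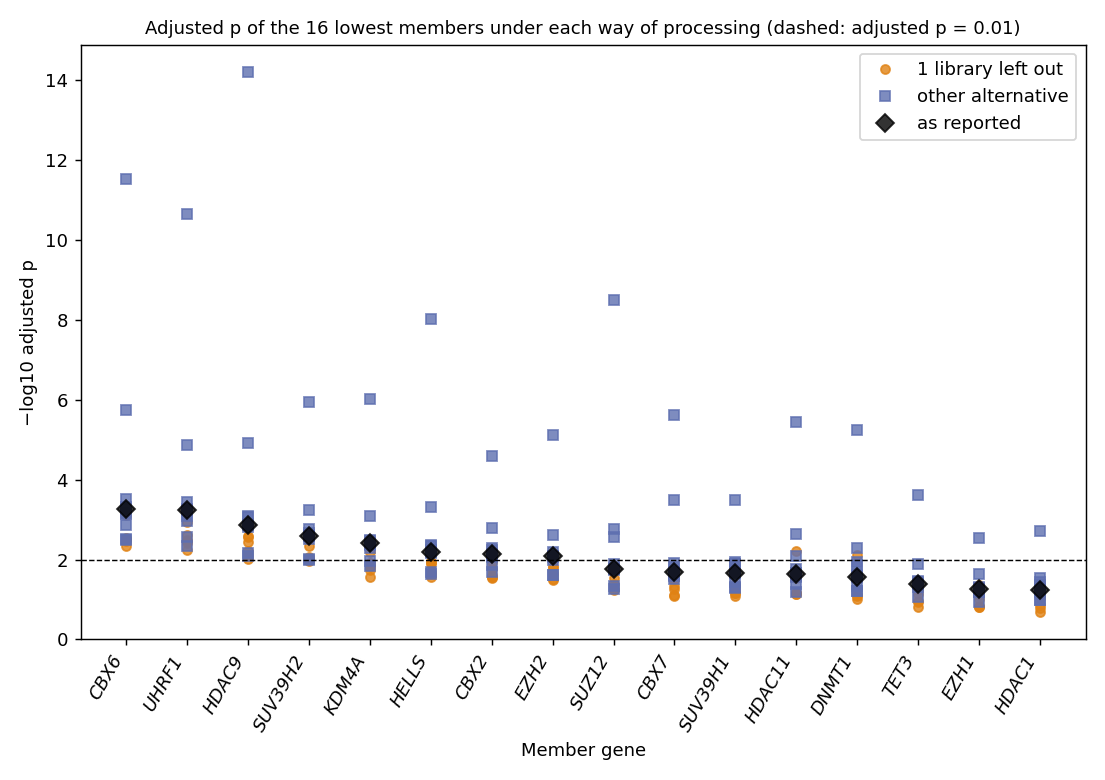
Adjusted p on a −log10 scale (y axis) of the 16 members with the lowest adjusted p, as reported (black), with 1 library left out (orange) and under the other ways of processing (blue). CBX6, UHRF1 and HDAC9 stay above the dashed line at an adjusted p of 0.01 throughout. SUV39H2, KDM4A, HELLS, CBX2 and EZH2 lie above it as reported and below it under some alternatives. SUZ12, CBX7, SUV39H1, HDAC11, DNMT1, TET3, EZH1 and HDAC1 lie below it as reported and above it under at least 1 alternative.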

How the data were processed

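PolyA-selected, strand-specific mRNA-seq libraries of KNS42 cells were grouped by their labels. The authors clipped reads with cutadapt 1.14, aligned them to GRCh38 with HISAT2 2.1.0, counted them per gene with featureCounts 1.5.3 (the strand setting is not given in the sources used here) and deposited FPKM values per gene and library. The deposited table also holds the authors' own log2 fold changes, p-values and FDR from edgeR 3.18.1, which were not used. All value columns belong to a mapped library. From these, log2(FPKM + 0.1) was fitted in limma 3.58.1 (R 4.3.3, eBayes with trend and robust, no block) for 15069 genes whose mean was 0.5 FPKM or more, and p-values were adjusted by Benjamini-Hochberg with a threshold of 0.01. FPKM times length gave whole multiples of 1 read for 100% of values above 0 (tolerance 0.01 reads), 13087025 to 18024080 reads per library, and voom on these reads was an alternative. These depths speak to counting error only. Libraries of the same group differed by more than counting error. Their chi-square per degree of freedom ran from 3.34 (siC replicates 1 and 3) to 10.2 (siMSI1 replicates 2 and 3). Ratios of related members were compared by two-sided exact permutation tests (SciPy), adjusted over the 17 pairs. The fit was also run on simulated reads with the same dispersion for all genes and libraries. The spread of the real libraries was unequal, so that this run gives no error rate for them. Positions, overlaps and 3′UTRs were taken from GENCODE release 44 on GRCh38, another annotation than that used for counting, and promoters from RefSeq. The genes named with values in each library were those past the threshold, the 6 members with the largest change that did not pass, those with the highest and lowest mean, and members named after their values were seen, namely DNMT1, DNMT3A, SUV39H1 and KDM5B. The members and lists were chosen with earlier results of these data known. The deviations of same-numbered libraries from their group means had correlations of -0.07, 0.08 and 0.08 between the groups. Those of differently numbered libraries ran from -0.14 to 0.07. These values do not decide whether the libraries were paired by number.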

Additional observations from a re-analysis of the deposited data

How the results depend on the processing

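Among the 949 member results under the 17 alternatives, 856 kept their direction and side of the threshold, 36 lost and 26 gained a call, and 31 turned in sign, all of them in 13 members that lay within 0.0747 of 0. The 7 lower and 1 higher members were unchanged with 1 or 0.01 FPKM added, a mean FPKM of at least 1, median centring and quantile normalization. They became 4 and 0 without a filter on low genes (29846 genes tested), 3 and 0 with plain variance moderation, 13 and 1 at an adjusted p of at most 0.05, 11 and 1 with voom, and 16 and 4 with voom and the replicate block. Leaving out 1 library gave 3 to 6 lower and 0 to 1 higher members, 0 to 7 changed partner genes and 517 to 1603 changed genes in all, with fewer samples in each such fit. The changed partner genes numbered 2, 1, 17 and 27 without a filter, with plain moderation, at 0.05 and with voom and the block, and all changed genes 792, 847, 3787, 4874 and, with voom alone, 2691. The replicate block alone gave 8 lower and 1 higher members, with EZH2 lost and HDAC11 and SUZ12 gained, and 2250 changed genes. The libraries share only a number, and not every sample correlated best with its own number. Paralog pairs without overlap numbered 7 to 9 over the alternatives.

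Signs turned in HDAC3 with median centring (0.011), voom (0.0025) and voom with the block (0.0014), in KDM4B with median centring (0.0071) and quantile normalization (0.010) and in KDM5A with quantile normalization (0.0053). With 1 library left out, the log2 fold changes crossed 0 in RING1 (-0.159 to 0.052), CBX8 (-0.069 to 0.079), PHC1 (-0.066 to 0.029), KMT2D (-0.016 to 0.089), SETD2 (-0.132 to 0.020), DOT1L (-0.099 to 0.042), EHMT1 (-0.055 to 0.051), KDM2B (-0.019 to 0.045), KDM4B (-0.063 to 0.045), KDM5A (-0.042 to 0.041), KDM5C (-0.043 to 0.075), HDAC3 (-0.066 to 0.057) and HDAC5 (-0.011 to 0.132). The cause of these changes was not tested. CBX7, TET1, DNMT3B, EHMT2 and HDAC11 had fewer than 200 reads in each library.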
